A study of Mus musculus with 24 samples.

Results

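The comparison described here asks which mRNAs of mouse erythroblasts move onto or off polysomes when the large-subunit protein Rpl11 runs short, by setting 3 sucrose gradients of cells with an Rpl11 shRNA against 3 of cells with a control construct. It uses 12 of the 24 arrays and 6 of the 12 gradients of the series, chosen by their labels and by no measured value. The cells are immortalized mouse erythroblasts, expanded in a serum-free medium with erythropoietin (Epo), stem cell factor (SCF) and dexamethasone (Dex). The Rpl11 shRNA and the control construct (ev in the labels, with sc as its shRNA tag) reached the cells by lentivirus, and lysates were made 3 days later under cycloheximide, which halts ribosomes on their mRNA. Of each lysate the polyribosomal part of the gradient, down to the monosome peak, formed a polysomal pool and the remainder a subpolysomal pool, and 7 µg of RNA from each pool went onto its own array. The other 2 groups, with 3 gradients each, are cells with an Rps19 shRNA and cells with no shRNA, called untransduced here. The labels give no strain, genotype, clone or promoter, and they call the gradients of a group biological replicates without saying how the cultures were kept apart, so p values measure the spread between these gradients. One Rps19 gradient carries the word puro in its label, with no explanation.

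Rpl11 lies on the large ribosomal subunit next to the 5S rRNA, and free Rpl11 binds the ubiquitin ligase Mdm2, which otherwise keeps p53 low. Loss of a copy of the gene causes Diamond-Blackfan anaemia, a failure of red cell production. An mRNA that is being translated by several ribosomes sediments with polysomes, whereas an mRNA with a single ribosome, or with none, stays in the lighter fractions.

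The measure per gene and gradient is the polysomal share, polysomal over polysomal plus subpolysomal signal. For tests it is recruitment, the log2 of the polysomal minus the log2 of the subpolysomal signal, and a change is the mean of the Rpl11 gradients minus that of the control gradients, with its standard error (SE) and n = 3 in each group. Genes described as having risen or fallen have an adjusted p below 0.05 over 11046 genes. Because the arrays share a common scale by construction, a general loss of polysomes cannot be seen, and every value is relative to the other mRNAs of its pool.

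The Rpl11 mRNA itself was low on all 6 arrays of the Rpl11 shRNA. Its polysomal signal was 3105, 6212 and 5273 in the 3 Rpl11 gradients and 29027, 26679 and 26817 in the control gradients. Its subpolysomal signal was 5285, 11114 and 8496 against 62271, 48790 and 51416, so the groups lie far apart in both pools. The level, the mean of both pools, fell by 2.66 on the log2 scale (SE 0.25, adjusted p = 0.00111), and fewer cells or less RNA per cell cannot be told apart in such pooled material. In all, 2224 genes (20.1%) differed in level. The remaining Rpl11 mRNA had polysomal shares of signal of 0.370, 0.359 and 0.383 against 0.318, 0.354 and 0.343 in controls. Its recruitment differed by 0.21 (SE 0.16, adjusted p = 0.501), and by -0.92 when all arrays were quantile normalized, so its direction is unsettled.

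Arrays of the Rpl11 group stand apart from the others in quality. The log2 ratio of 3' to 5' Gapdh control signals, which grows as RNA is degraded or copied incompletely, was 0.99, 1.23 and 3.31 in their polysomal pools and -0.46, 2.10 and 3.90 in their subpolysomal pools, against at most 0.42 on the 18 other arrays. Their median signals were also lower, at 46.8 to 49.0 against 58.9 to 68.9 in the polysomal and 65.7 to 86.7 against 97.2 to 125 in the subpolysomal pool. The 6 Rpl11 arrays are also numbered in a style of their own in the sample descriptions, in 1 run over both pools, and lack values for 2 probe sets, so the shRNA and any separate handling of these arrays cannot be told apart. The part of RNA quality in the results was not tested beyond a fit with a Gapdh covariate and fits without gradients. The covariate is the log2 3' to 5' ratio of the polysomal pool minus that of the subpolysomal pool of a gradient. A rise shared by both pools cancels in it, so that fit cannot adjust for such a rise. Of 16 erythroid markers 11 were on the array and 10 passed the filter on signal. The signal summed over these 11 and over both pools of a gradient was 173642 to 206539 in Rpl11 and 178688 to 229292 in control gradients. Markers of macrophages (4 of 10 past the filter, 1340 to 1871 against 1654 to 2102), granulocytes (2 of 10, 656 to 754 against 1033 to 1207), megakaryocytes (6 of 10, 9211 to 13066 against 6016 to 15729), mast cells (4 of 9, 1749 to 4223 against 2076 to 6999), lymphocytes (2 of 11, 562 to 955 against 899 to 1340) and stroma (2 of 10, 774 to 977 against 1120 to 1320) are given as Rpl11 against control gradients. These sums too cover both pools and all markers on the array, also those below the filter. The ranges do not overlap for granulocytes and stroma, which were lower in Rpl11 gradients, and overlap for the other 4 types. Most markers in the granulocyte and stroma sums lie below the filter, and median signals were lower on Rpl11 arrays as well. Whether the lower sums reflect fewer such cells was not tested. Lyz2, C1qa, Elane, S100a8, Cd3e, Cd79a, Col1a1 and Pecam1 did not pass the filter, nor did Dcn, the brightest stromal marker. The brightest markers of macrophages (Csf1r), granulocytes (Mpo), megakaryocytes (Pf4), mast cells (Hdc) and lymphocytes (Cd8a) did pass it. The part of other cells in the results was not tested.

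**Figure D1:**
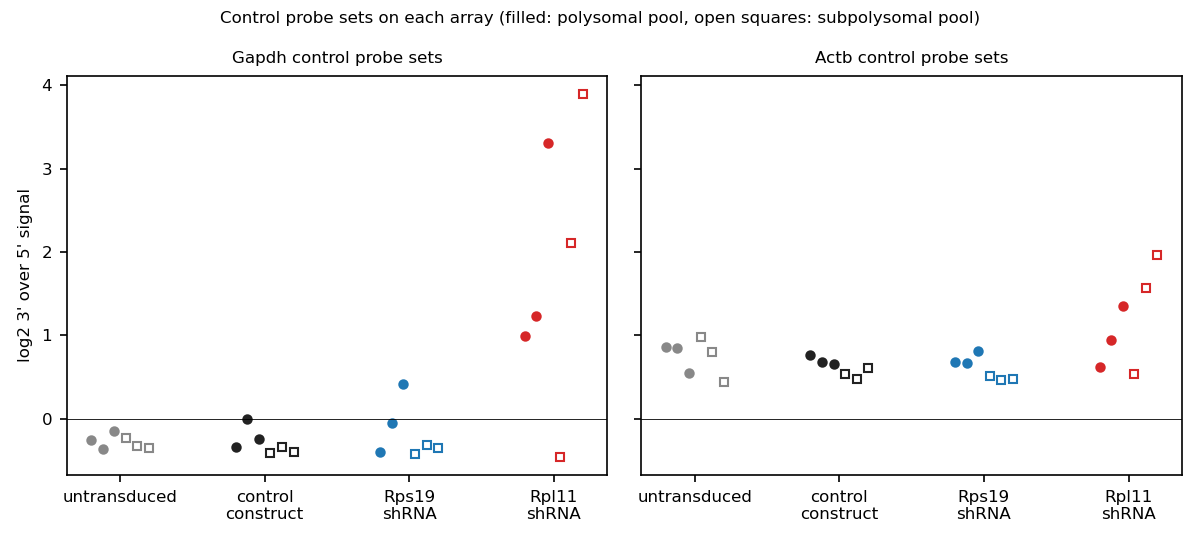
Log2 ratio of 3' to 5' signal of the Gapdh (left) and Actb (right) control probe sets on each of the 24 arrays, by group, with filled circles for polysomal and open squares for subpolysomal pools. For Gapdh, 5 of the 6 Rpl11 arrays lie between 0.99 and 3.90, and no other array exceeds 0.42.

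Polysome loading of many mRNAs differed between the groups. Of 11046 genes 622 passed the threshold (5.63%), 233 that rose (2.11%) and 389 that fell (3.52%), and 63 and 90 of these moved by at least 1 on the log2 scale. In all 622 the values of the groups do not overlap, which holds for 26.5% of all genes tested, and the median change over all genes was 0.02. The mRNAs that fell had a median change of -0.25 in the polysomal and of 0.59 in the subpolysomal pool, and 282 of the 389 were lower in the first and higher in the second. Those that rose had medians of 0.51 and -0.38, with 138 of 233 higher in the polysomal and lower in the subpolysomal pool. Both pools moved the same way for the rest, as for Ctsl, a lysosomal protease that rose by 1.29 while it gained 2.47 in the polysomal and 1.18 in the subpolysomal pool. These calls use a spread estimated from all 12 gradients. Between gradients of a group, recruitment correlated at 0.404 to 0.556 with the Rpl11 shRNA and at 0.567 to 0.587 with the control construct. Whether a shared spread suits the Rpl11 group was not tested. The 6 gradients alone gave 0 calls in limma (smallest adjusted p = 0.1001, 2076 genes with an unadjusted p below 0.05), and without Rpl11 gradients 2 and 3, whose 3' to 5' ratios are highest, 0 passed as well (smallest adjusted p = 0.0537). Counts of genes that rose and fell dropped to 33 and 99 without control gradient 1, to 82 and 176 without control gradient 2, to 82 and 169 without control gradient 3 and to 52 and 111 without Rpl11 gradient 3. Without Rpl11 gradients 2 and 3 no list below kept a call.

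**Figure D2:**
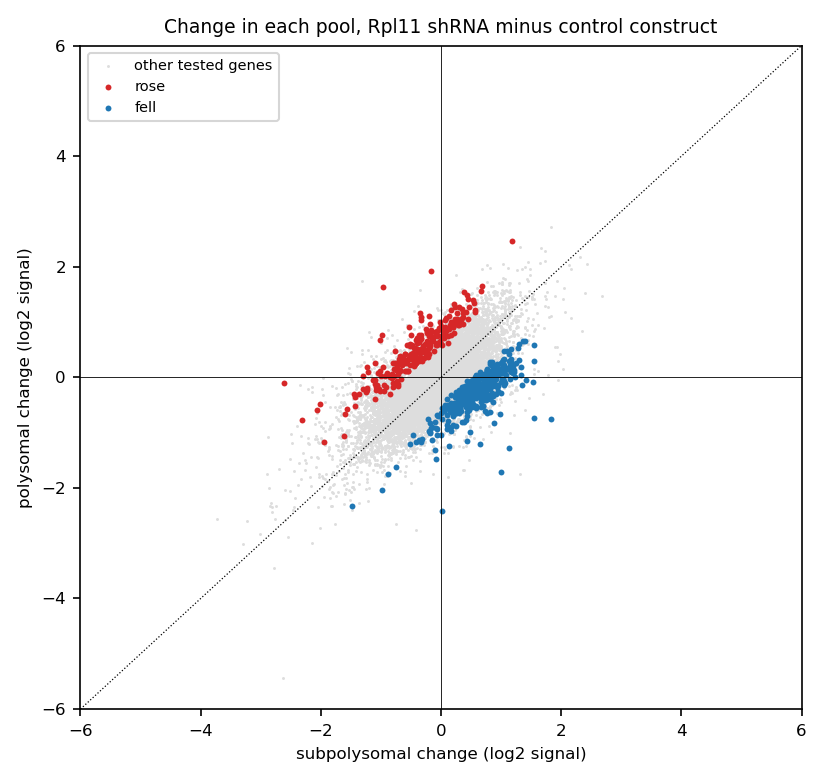
Change of each tested gene in the subpolysomal (x axis) and polysomal pool (y axis), Rpl11 shRNA minus control construct, in log2 signal. Red points are the 233 genes that rose and blue points the 389 that fell, grey points are other genes and the dotted line marks equal change in both pools. Most blue points lie right of 0 and below 0, most red points left of 0 and above 0.

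Recruitment of respiratory chain mRNAs was lower with the Rpl11 shRNA, mainly through a higher subpolysomal signal. Of 74 tested genes for complexes I to V and cytochrome c, 27 fell and 3 rose, with a median change of -0.44. Their median signal changed by 0.30 in the subpolysomal and by -0.12 in the polysomal pool, against -0.08 and -0.09 over all genes. The median recruitment of the 74 was -0.34, -0.28 and -0.34 in the Rpl11 gradients and -0.01, 0.07 and 0.00 in the control gradients, and 0.10, 0.07 and 0.02 with the Rps19 shRNA. All 3 Rpl11 gradients thus lie below those of the control and Rps19 groups. In the fit with the Gapdh covariate 32 fell, though a rise shared by both pools cancels in that covariate. When any 1 gradient was left out 6 to 21 fell. The count was 6 without control gradient 1, 7 without control gradient 2, 14 without control gradient 3 and 7 without Rpl11 gradient 3. Quantile normalization of all arrays left 10 that fell and a median of -0.22. The count that fell was 4 with no filter on signal, 8 with arrays centred on their medians and 15 with the replicate number as a block. It was 38 with the upper 25% of probe sets and 35 with array weights.

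Atp5md, a small membrane subunit of ATP synthase, had polysomal shares of 0.198, 0.271 and 0.192 with the Rpl11 shRNA against 0.510, 0.520 and 0.404 with the control construct. This gene fell by 1.71 (SE 0.24, adjusted p = 0.00873). Its Rps19 gradients, at 0.395, 0.412 and 0.371, overlap the controls. Ndufc1, an accessory subunit of complex I, went from 0.554, 0.494 and 0.531 to 0.316, 0.323 and 0.332 (change -1.22, SE 0.16, adjusted p = 0.00873). Ndufb3, of the same complex, went from 0.717, 0.678 and 0.646 to 0.522, 0.478 and 0.492 (-1.11, SE 0.15). In both the control values lie well above every Rpl11 value. In complex I 11 of 32 fell, among them Ndufa13 (-1.06), Ndufa1 (-0.88), Ndufa2 (-0.88) and Ndufa5 (-0.76), and 1 rose, Ndufa9 (0.72). The count that fell was 4 without control gradient 1 or 2 or Rpl11 gradient 3 and 6 without control gradient 3. In complex III and cytochrome c 5 of 10 fell (Uqcrq, Uqcr11, Uqcr10, Cycs and Uqcrb, -0.95 to -0.52), against 0 without control gradient 1, 1 without control gradient 2 or Rpl11 gradient 3, 2 without control gradient 3 and 3 without Rpl11 gradient 1 or 2. The electron carrier Cycs had shares of 0.407, 0.411 and 0.407 against 0.539, 0.541 and 0.522 in controls. In complex IV 3 of 10 fell, Ndufa4 (-1.02), Cox7a2 (-0.83) and Cox6b1 (-0.61), against 1 without control gradient 1 or 2 or Rpl11 gradient 3. ATP synthase had 8 of 18 that fell, against 1 without control gradient 1 or 2 or Rpl11 gradient 3, 3 without Rpl11 gradient 1, 4 without control gradient 3, 5 without Rpl11 gradient 2 and 2 with all arrays quantile normalized. The 3 genes of the chain that rose were Ndufa9, the complex III core protein Uqcrc2 (0.64, SE 0.15, adjusted p = 0.0391) and the catalytic-head subunit Atp5a1. Atp5a1 had shares of 0.443, 0.409 and 0.453 against 0.288, 0.315 and 0.337 (0.76, SE 0.14, adjusted p = 0.0144). None of the 4 genes of complex II passed, with a median of 0.06.

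**Figure D3:**
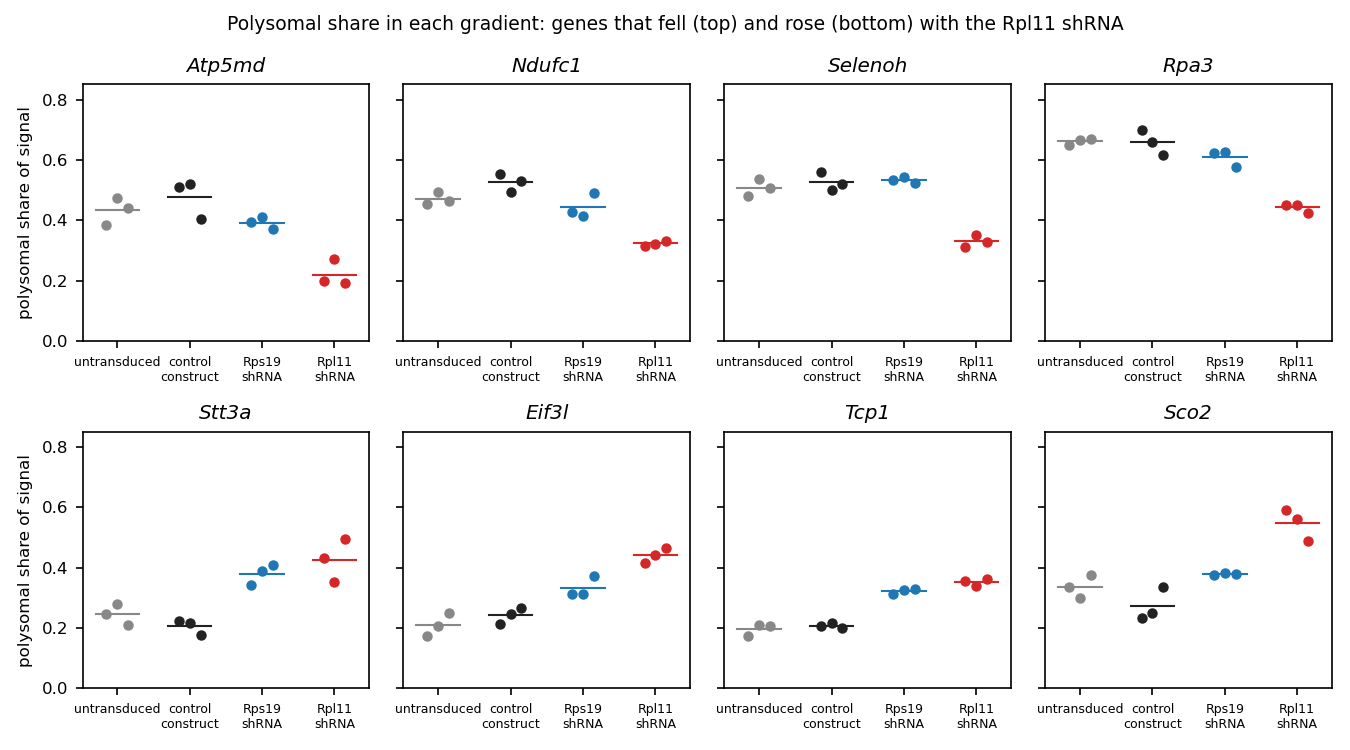
Polysomal share of signal (y axis, linear) in each of the 12 gradients for 4 genes that fell (Atp5md, Ndufc1, Selenoh, Rpa3) and 4 that rose (Stt3a, Eif3l, Tcp1, Sco2) with the Rpl11 shRNA. Points are gradients and lines group means, and in each panel the 3 Rpl11 values lie apart from the 3 control values.

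Other mitochondrial mRNAs moved alongside. Mitochondrial ribosomal proteins fell in 14 of 77 cases and rose in 1 (median -0.21). The count that fell was 6 without control gradient 1 or Rpl11 gradient 3, 7 without control gradient 3, 8 without control gradient 2 and otherwise 11 to 16. Mrps21 had shares of 0.361, 0.314 and 0.321 against 0.586, 0.523 and 0.547 (-1.31, SE 0.21, adjusted p = 0.00937). Mrpl18 went from 0.603, 0.518 and 0.530 to 0.364, 0.379 and 0.353 (-1.09, SE 0.17, adjusted p = 0.00923), while its Rps19 gradients held 0.534, 0.554 and 0.538. The Rpl11 values of both lie below every other gradient. Mrpl42 (-1.21), Mrpl34 (-1.14), Mrpl57 (-1.07), Mrpl51 (-0.97) and Mrps14 (-0.89) fell too, and Mrpl24 rose (0.76). By subunit these were 8 of 47 that fell in the large (median -0.21) and 6 of 30 in the small one (median -0.31).

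Assembly factors of the respiratory chain fell in 13 of 45 cases and rose in 3 (median -0.26). The count that fell was 2 without Rpl11 gradient 3, 3 without control gradient 1 or 3, 5 without Rpl11 gradient 1, 6 without control gradient 2 and 8 without Rpl11 gradient 2. Cox19 (-1.23), Coa3 (-1.21) and Pet100 (-1.04) serve cytochrome oxidase, as does the copper chaperone Sco2, which went the other way. Sco2 had shares of 0.590, 0.561 and 0.487 against 0.231, 0.248 and 0.335 in controls and rose by 1.69 (SE 0.22, adjusted p = 0.00873). The import machinery fell in 5 of 27 (median -0.44, 2 without control gradient 1, 3 without control gradient 2 or 3 or Rpl11 gradient 3), with the intermembrane-space chaperones Timm8b (-1.01), Timm8a1 (-0.95) and Timm10b (-0.73), the outer-membrane subunit Tomm7 (-0.85) and Dnajc15 (-0.96). Iron-sulfur cluster and LYR-motif assembly factors fell in 6 of 23 and rose in 1 (median -0.30). The count that fell was 1 without control gradient 1 or Rpl11 gradient 3, 2 without control gradient 3 and 3 without control gradient 2. Isca2, an assembly protein, went from 0.520, 0.547 and 0.572 to 0.329, 0.391 and 0.311, and the exception Ciao1, of the cytosolic targeting complex, stood at 0.85 (SE 0.17, adjusted p = 0.0186). Of the 389 genes that fell 59 are on the respiratory chain, assembly, import and mitochondrial ribosome lists. The iron-sulfur and LYR list is not part of this count, and 330 genes that fell are on none of the counted lists. Among the latter are Mtln, a micropeptide of mitochondria (-1.41), and Higd1a, a small inner-membrane protein (-1.26), which the lists do not hold.

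Genes off the mitochondrial lists fell as well. Rpa3, the smallest subunit of the single-strand DNA-binding protein RPA, had shares of 0.452, 0.450 and 0.426 against 0.700, 0.660 and 0.617 with the control construct and fell by 1.28 (SE 0.16, adjusted p = 0.00873). Anapc13 of the anaphase-promoting complex went from 0.542, 0.569 and 0.548 to 0.398, 0.345 and 0.343 (-1.13, SE 0.17, adjusted p = 0.00883). Pfdn4, a prefoldin subunit, went from 0.656, 0.639 and 0.625 to 0.475, 0.480 and 0.396 (-1.12, SE 0.17, adjusted p = 0.00883). No Rpl11 value of these 3 genes reaches the controls. Sm and LSm proteins of splicing and mRNA decay fell in 5 of 22 cases (Lsm1, Lsm3, Lsm8, Lsm6 and Snrpe, median of the list -0.33, with 2 without any 1 control gradient or Rpl11 gradient 3 and 3 without Rpl11 gradient 1). RNA polymerase subunits were split, with Polr2d (-0.86), Polr2j (-0.80) and Polr2i (-0.67) down and Polr1c (0.87) and Polr3c (0.60) up, of 24 tested (median -0.09). Without control gradient 1 none of these 5 passed, and the other fits that left out 1 gradient gave 0 to 1 that rose and 0 to 2 that fell. Cenpx, a small centromere protein, fell by 1.38 and Ier3ip1, a small endoplasmic reticulum protein, by 1.46 (SE 0.19, adjusted p = 0.00873). Nme1, a nucleoside diphosphate kinase, fell by 1.62 on the probe set used and stood at -0.54 on its other bright one.

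Selenoproteins, which read a UGA codon as selenocysteine, fell in 5 of 18 cases and rose in 0 (median -0.21, with 2 that fell without control gradient 1 or 2 or Rpl11 gradient 3, and 3 without control gradient 3 or Rpl11 gradient 1). Selenoh had shares of 0.311, 0.353 and 0.328 against 0.561, 0.499 and 0.519 (-1.17, SE 0.15, adjusted p = 0.00873), and 0.532, 0.545 and 0.523 with the Rps19 shRNA. Selenof went from 0.611, 0.641 and 0.609 to 0.419, 0.454 and 0.418 (-1.12, SE 0.14, adjusted p = 0.00873). For both genes the Rpl11 gradients are lowest of all 12. Selenot (-0.82), the lipid peroxidase Gpx4 (-0.65) and Selenos (-0.54) completed the set.

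The mRNAs that rose included enzymes of the secretory pathway. Of 44 tested genes for entry into the endoplasmic reticulum, glycosylation and folding, 7 rose and 3 fell (median 0.22, with 2 that rose without control gradient 1 or Rpl11 gradient 3 and 3 without control gradient 2 or 3). Stt3a, the catalytic subunit of oligosaccharyltransferase, had shares of 0.433, 0.352 and 0.494 against 0.224, 0.216 and 0.178 in controls and rose by 1.52 (SE 0.24, adjusted p = 0.00923). Pigk, which attaches GPI anchors, went from 0.364, 0.354 and 0.327 to 0.609, 0.555 and 0.622 (1.44, SE 0.20, adjusted p = 0.00873). The groups of both genes are clearly separate, although Pigk in untransduced cells was at 0.514, 0.406 and 0.389, above the control construct. Pdia3, a protein disulfide isomerase (1.31), the oligosaccharyltransferase subunits Ddost (0.99) and Rpn2 (0.81), Pigu (0.92) and P4hb (0.84) rose as well. The 3 that fell were the signal recognition particle subunit Srp14 (-0.99), the oligosaccharyltransferase subunit Ost4 (-0.89) and the signal peptidase subunit Spcs1 (-0.79).

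Cytosolic chaperones rose in 6 of 42 cases and fell in 1 (median 0.27, with 1 that rose without any 1 control gradient or Rpl11 gradient 3 and 2 without Rpl11 gradient 1). Tcp1, a subunit of the chaperonin that folds actin and tubulin, had shares of 0.355, 0.338 and 0.362 against 0.208, 0.217 and 0.199 (1.04, SE 0.13, adjusted p = 0.00873), and 0.312, 0.326 and 0.329 with the Rps19 shRNA. Cct5 (0.86) and Cct6a (0.63) of the same complex and the Hsp90 partners Cdc37 (0.92) and Fkbp4 (0.81) rose. Proteasome genes rose in 5 of 47 cases and fell in 3 (median 0.29, with 0 that rose without any 1 control gradient or Rpl11 gradient 3 and 2 without Rpl11 gradient 1 or 2), with the base ATPases Psmc5 (1.16) and Psmc1 (0.87) up and the small subunit Sem1 (-0.77) and the assembly factors Psmg3 (-0.62) and Pomp (-0.51) down. In cholesterol synthesis 2 of 20 rose, Mvd, which makes isopentenyl diphosphate (1.43, SE 0.25, adjusted p = 0.0135), and Ebp (0.69), and the list median was 0.45. The count was 0 without control gradient 1, 1 without control gradient 2 or 3 or Rpl11 gradient 3 and 3 without Rpl11 gradient 1 or 2. Among other bright genes that rose were the glycolytic kinase Pgk1 (1.16, SE 0.19, adjusted p = 0.0101), the sodium pump subunit Atp1b2 (1.36), the retinol dehydrogenase Rdh11 (1.38) and the tetraspanin Cd37 (1.73, SE 0.41, adjusted p = 0.0392).

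Cytosolic ribosomal proteins gave 0 calls among 22 tested of 47 large-subunit and 21 tested of 32 small-subunit genes, with 5.63% of all genes called. Their median recruitment was -1.03, -0.91 and -1.16 in the Rpl11 gradients and -1.37, -1.10 and -1.16 in the control gradients, which overlap. The medians of their changes were 0.14 and 0.18, with 41 genes higher and 2 lower at any size of change. The median over both subunits turned to -0.02 with all arrays quantile normalized. Closest to the threshold were Rpl14 (0.67, SE 0.22, adjusted p = 0.0999) and Rps6 (0.97, SE 0.33, adjusted p = 0.116). Rps19 differed by 0.07 (SE 0.18, adjusted p = 0.87), with shares of 0.310, 0.287 and 0.245 against 0.249, 0.288 and 0.275.

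Other mRNAs known to start with a terminal oligopyrimidine (TOP) tract, a C followed by a run of pyrimidines through which growth signals set translation, rose in 2 of 24 cases and fell in 0 (median 0.39). Eif3l, a subunit of initiation factor eIF3, had shares of 0.415, 0.442 and 0.463 against 0.214, 0.247 and 0.265 (1.31, SE 0.20, adjusted p = 0.00901). Eef1d, of the elongation factor complex that reloads eEF1A, had 0.397, 0.449 and 0.532 against 0.228, 0.270 and 0.256 (1.34, SE 0.20, adjusted p = 0.00901). In both, untransduced cells stayed with the controls, at no more than 0.281, and Rps19 gradients lay between 0.311 and 0.392. Both passed in every fit that left out 1 gradient, but with the mean of its probe sets Eef1d did not (0.93, adjusted p = 0.0613). The windows below run from 5 bases before to 25 bases after the RefSeq start, to show where a search found such a tract. They are of genes that rose (Eif3l, Stt3a), fell (Ndufc1, Atp5md) or were targeted (Rpl11). Capitals mark the longest run of a C followed by at least 4 pyrimidines that begins within 5 bases of the start, searched on the transcribed strand (RefSeq, GRCm38.p6).
Eif3l (chr15:79075218-79075247, plus strand): cttcttccgCTCTCTCCCacgggcttctgg
Stt3a (chr9:36767598-36767627, minus strand): tggctgctgtcagggttgagtgcgccgctg
Ndufc1 (chr3:51408931-51408960, minus strand): cccgagaagaggcggagcctgcggaacaag
Atp5md (chr19:47090623-47090652, minus strand): ggggcgtCTTCCggtcgggccgagctcgtc
Rpl11 (chr4:136053369-136053398, minus strand): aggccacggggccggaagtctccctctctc
Eif3l has the longest marked run of the 5, Atp5md a short one, and the pyrimidine run of Rpl11 lies farther downstream than the search allowed. Of 8993 tested genes with a window, 23.8% carry the match, against 45 of 195 that rose (23.1%) and 65 of 330 that fell (19.7%). It was found in 10 of 20 large-subunit and 9 of 18 small-subunit ribosomal protein genes and in 8 of 18 other TOP mRNAs. An unmarked start can therefore still belong to a TOP mRNA.

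Initiation factors rose in 3 of 26 cases and fell in 0 (median 0.17, with 0 without control gradient 1 and 1 without control gradient 2 or Rpl11 gradient 3), with the eIF2B subunits Eif2b2 (0.78) and Eif2b5 (0.69), which recharge eIF2, and the eIF3 subunit Eif3m (1.06, SE 0.19, adjusted p = 0.0144). Ribosome biogenesis factors rose in 4 of 86 cases and fell in 2 (median 0.18, with 1 that rose without control gradient 1 or Rpl11 gradient 3). Fibrillarin (Fbl), which methylates rRNA, had shares of 0.522, 0.526 and 0.546 against 0.351, 0.408 and 0.367 (0.92, SE 0.16, adjusted p = 0.0122). Ddx49 (1.25), Noc4l (0.98) and Rrp1 (0.90) rose with it, whereas the small box H/ACA protein Nop10 (-0.86) and Tsr2, an escort of an incoming small-subunit protein (-0.56), fell. Of tRNA synthetases 1 of 20 rose, Sars (0.98, list median 0.26). Over all genes tested 2.11% rose and 3.52% fell, 5.63% in both directions. The biogenesis and tRNA synthetase lists held calls near that share.

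**Figure D4:**
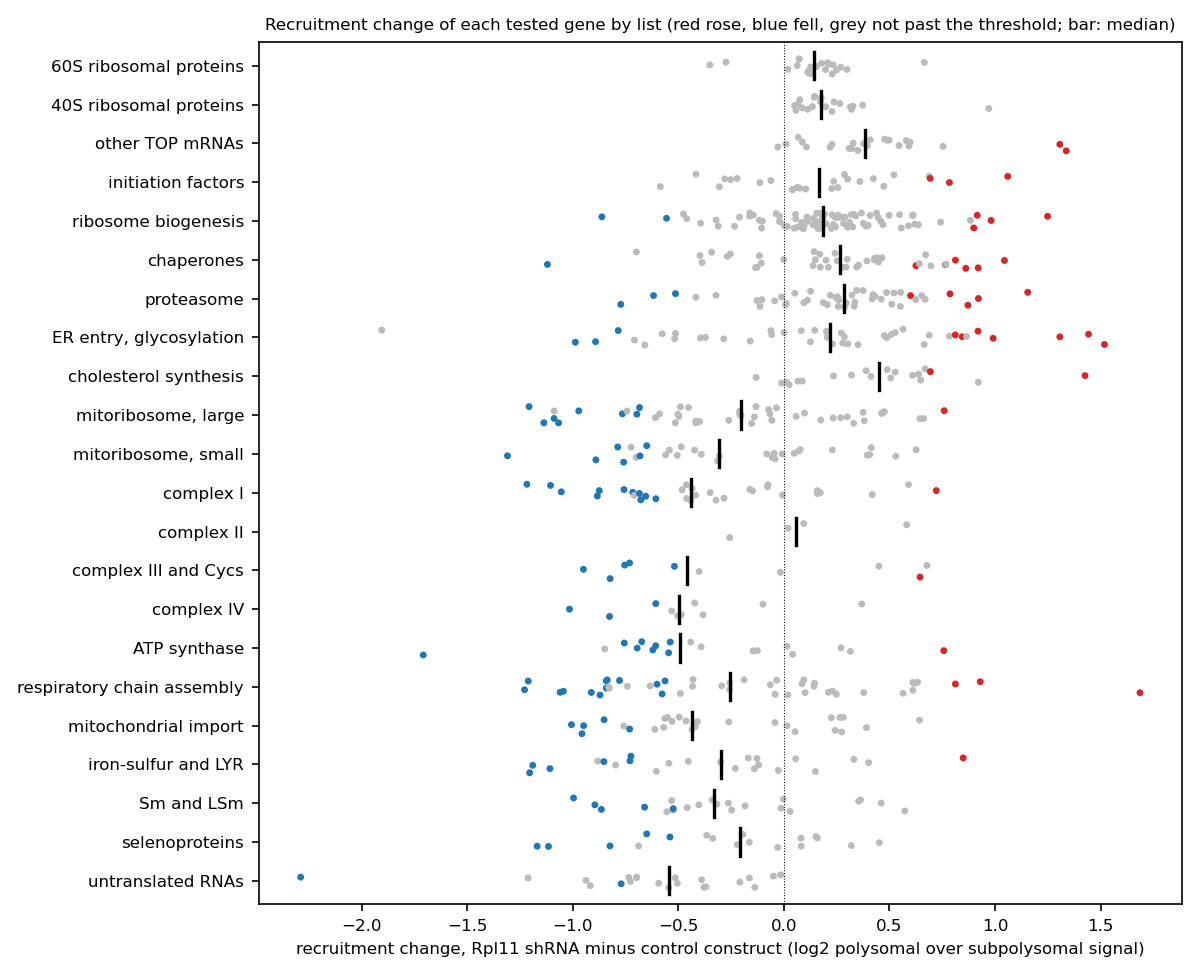
Recruitment change of each tested gene on 22 lists (x axis, log2 polysomal over subpolysomal signal, Rpl11 shRNA minus control construct). Red points rose, blue points fell, grey points did not pass the threshold, and bars are list medians, from -0.55 for untranslated RNAs and -0.50 for complex IV to 0.45 for cholesterol synthesis.

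The erythroid lists held few calls and are read against the 5.63% of all genes. Among 34 erythroid regulators Gata1, the transcription factor on which the lineage depends, was the one that passed, with shares of 0.563, 0.525 and 0.487 against 0.391, 0.426 and 0.437 (0.62, SE 0.16, adjusted p = 0.0445, list median 0.13). Gata1 did not pass in any of the 6 fits that left out 1 gradient (adjusted p = 0.0625 to 0.157). In haem and iron handling 2 of 31 rose, the iron exporter ferroportin (Slc40a1, 0.89) and biliverdin reductase B (Blvrb, 0.66), with a list median of 0.18. Of 29 membrane and globin genes Rhd (0.78) and the adhesion receptor Cd44 (0.76) rose and glycophorin C (Gypc, -0.71) fell (median 0.11). Without control gradient 1 or Rpl11 gradient 3 neither of these lists held a call. Of 28 genes on a list of mRNAs with a reported internal ribosome entry site and of factors that bind such sites, Hnrnpl rose (1.06, median 0.29). Bag1, a co-chaperone among them, differed by -0.51 (SE 0.17, adjusted p = 0.105), with shares of 0.358, 0.451 and 0.447 against 0.532, 0.484 and 0.502 in controls and 0.372, 0.389 and 0.362 with the Rps19 shRNA. Its Rpl11 values lie below all control values without passing the test.

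Stress and growth lists were read against the 5.63% of all genes called. Of 28 p53 targets Ccng1 fell (-0.84, SE 0.15, adjusted p = 0.0145), and the list median was -0.12. Of 27 genes of the integrated stress response the serine synthesis enzyme Psat1 rose (0.95, median 0.06). Survivin (Birc5, -0.64) was the 1 call among 27 apoptosis genes (median -0.15) and Atg12 (-0.59) that among 33 autophagy genes (median -0.09). Signalling genes gave 0 calls of 26 (median -0.04), the nearest being Igbp1 (0.69, adjusted p = 0.0632). The interferon response gave 0 of 27 (median 0.16). Replication genes had 2 that rose, Mcm7 (0.85) and Tk1 (0.56), and Rpa3 that fell, of 47 (median 0.26). In mitosis the kinases Aurkb (0.95), Cdk1 (0.72) and Aurka (0.58) rose, while Anapc13, Anapc11 (-0.72), the small kinase partner Cks2 (-0.85) and securin (Pttg1, -0.59) fell, of 46 tested (median 0.08). All 21 untranslated RNAs on the list stood lower than with the control construct, 2 of them past the threshold, the imprinted antisense RNA Kcnq1ot1 (-2.29, SE 0.45, adjusted p = 0.0182) and the snoRNA host Snhg5 (-0.77), and the list median was -0.55. Their median recruitment was -1.81, -1.44 and -1.61 in Rpl11 and -1.21, -1.41 and -0.77 in control gradients. The Rpl11 values overlap those of untransduced cells (-1.73, -1.47 and -1.05) and of the Rps19 shRNA (-1.63, -1.53 and -1.26). Without control gradient 1 the p53, stress response, apoptosis and autophagy lists held 0 calls, replication and mitosis 0 that rose and 1 each that fell, and untranslated RNAs 1. Without Rpl11 gradient 3 mitosis held 0 that rose and 2 that fell, and replication genes that rose numbered 4 without Rpl11 gradient 2 and 0 in the other fits that left out 1 gradient. Zfas1, a snoRNA host outside the list, had shares of 0.256, 0.184 and 0.174 against 0.519, 0.378 and 0.436 (-1.65, SE 0.32, adjusted p = 0.0175).

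Changes followed how well an mRNA was loaded in untransduced cells. The 2209 genes with the highest recruitment in untransduced cells, which are not in the contrast, held 181 that fell and 1 that rose (median change -0.19). The 2210 with the lowest held 9 that fell and 86 that rose (median 0.17). The distance between the median recruitment of both sets was 1.20, 0.84 and 1.01 in the Rpl11 gradients, 1.25 to 1.56 in the control gradients, 1.26, 1.37 and 1.27 with the Rps19 shRNA and 1.95, 1.76 and 1.42 in untransduced cells. All Rpl11 values are thus the lowest, with the 1.20 of gradient 1 close to the control value of 1.25. Without Rpl11 gradients 2 and 3 the median changes were -0.13 and 0.05. The control construct against the untransduced cells that set the bins gave medians of -0.10 and 0.22 in the same direction, and Rps19 against control -0.05 and 0.02. Calls also gathered among bright genes, with 85 that rose and 268 that fell among the 2209 brightest and 8 and 11 among the 2210 dimmest.

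**Figure D5:**
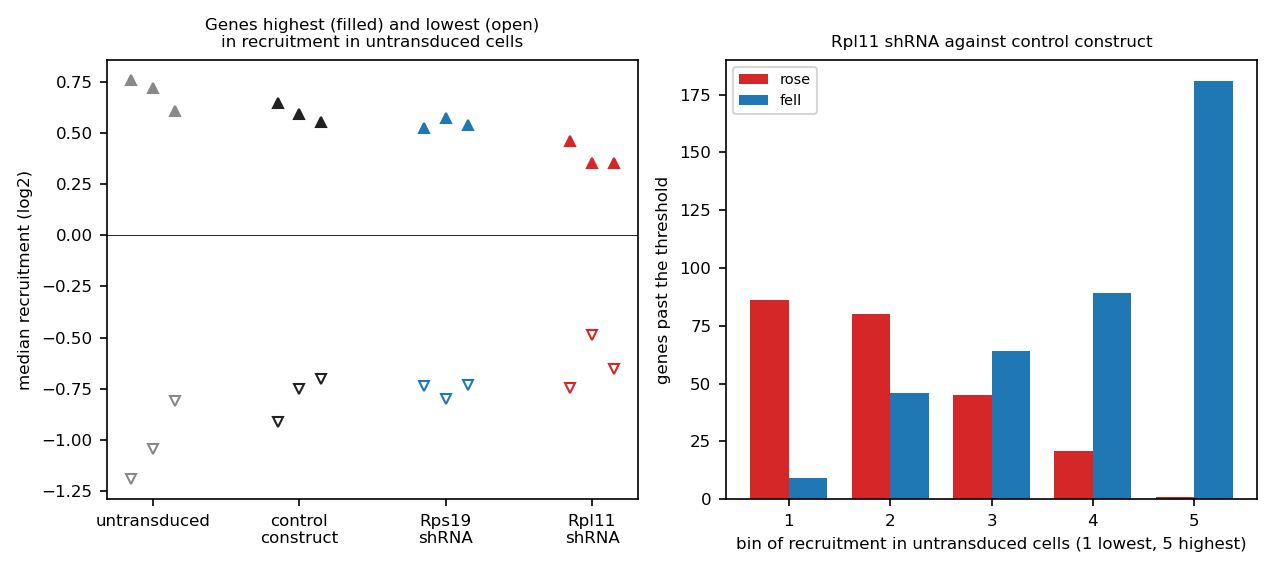
Left, median recruitment (log2) in each gradient of the 2209 genes highest (filled) and the 2210 genes lowest (open) in untransduced cells. Right, genes that rose (red) and fell (blue) with the Rpl11 shRNA by bin of recruitment in untransduced cells, from 86 and 9 in bin 1 to 1 and 181 in bin 5.

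Among dimmer genes the changes were large and less certain. Tnip2, an inhibitor of NF-kB signalling, had shares of 0.637, 0.641 and 0.647 against 0.367, 0.122 and 0.127 (2.60, SE 0.42, adjusted p = 0.00958). Rec8, a meiotic cohesin, went from 0.264, 0.272 and 0.258 to 0.670, 0.456 and 0.461 (1.54, SE 0.28, adjusted p = 0.0145). Cyb5d2 (2.51) and Ndrg4 (2.08) rose, and Lrrc18 (-2.71), Prkar1b (-2.60), Creb3l3 (-2.43) and Pnmt (-2.41) fell. Prkar1b, a regulatory subunit of protein kinase A, stood at -0.10 and -0.01 on its 2 other probe sets above the filter. Over the called genes chosen for naming, 82 of 88 further probe sets above the filter had the sign of the one used.

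The Rpl11 shRNA was also set against the Rps19 shRNA, a contrast without the control gradients. Here 61 genes differed (0.552%), 48 lower (0.435%) and 13 higher (0.118%) with the Rpl11 shRNA. Lower were Kcnq1ot1 (-2.68), Selenoh (-1.21), Tceal9 (-1.21), Mrpl18 (-1.04), Ndufb3, Rpa3 (-0.97), Mrps14 (-0.94), Pfdn4 (-0.91), Selenof (-0.88), Cox7a2 (-0.87), Cks2 (-0.85) and Cycs (-0.76). Among ribosomal proteins Rpl37 was lower (-1.10). Of the 74 respiratory chain genes 7 were lower and 0 higher. Rec8 (1.77) and the helicase Ddx39b (0.89) were among the higher ones. The 61 became 0 in the fit on the 6 gradients of both shRNAs, 3 without Rps19 gradient 1 or 2, 0 without Rps19 gradient 3, 1 without Rpl11 gradient 2, 2 without Rpl11 gradient 3 and 128 without Rpl11 gradient 1.

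Against the shared control gradients, the Rps19 shRNA gave 32 genes that rose (0.29%) and 64 that fell (0.579%). Side by side, the median change of the respiratory chain was -0.44 with the Rpl11 and 0.01 with the Rps19 shRNA, that of mitochondrial ribosomal proteins -0.21 and -0.09, and that of cytosolic ribosomal proteins 0.17 and 0.37. Medians were 0.27 and 0.24 for chaperones and 0.22 and 0.18 for the secretory list. The control construct itself differed from untransduced cells in 0 genes in limma (0%, smallest adjusted p = 0.986, 497 genes with an unadjusted p below 0.05). For cytosolic ribosomal proteins the median difference from untransduced cells was still 0.32 with the control construct and 0.49 with the Rpl11 shRNA. With untransduced cells in place of the control construct, 152 genes rose (1.38%) and 284 fell (2.57%) under the Rpl11 shRNA.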

How the data were processed

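The deposited values are MAS5 intensity signals of 45101 probe sets, one array per pool, with MAS5 named in the submitters' processing notes and its version not given in the sources used here. A second deposited table holds the polysomal share per gradient as a fraction, polysomal over polysomal plus subpolysomal signal, per the file headers. Recomputed shares matched it with a largest difference of 7.11e-10. The trimmed mean of each array lay between 499.77 and 500, so signals were used as deposited, after adding 7.85 (0.1 of the median signal, 78.5) and taking log2. Annotation gave 1 gene symbol for 34958 probe sets, several for 932 and none for 9211. Control probe sets and the dimmer 50% of the others were dropped. Each gene was represented by its brightest remaining probe set, which gave 11046 genes.

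Linear models with the group as the only term were fitted with limma 3.58.1 (R 4.3.3) to recruitment in all 12 gradients, with Benjamini-Hochberg adjustment over all genes and a threshold of 0.05. The fit was tested on simulated data before use. Gradients were chosen by their labels, and lists with earlier results of these data known. Lists are described by counts and medians, without a test. Named genes are Rpl11, Rps19 and Bag1, the 12 largest increases and decreases among brighter and the 5 largest among dimmer called genes, leaving out clones and predicted genes, and of each list up to 4 called members by p, or the 2 nearest. Other members of a list were named after their values were seen, as were Rpl37 and Ddx39b. Not every gene the rule allows is printed. Protein lengths were not analysed here. Windows around starts are from RefSeq. Alternatives covered the pseudocount, the filter, scaling, probe set choice, the replicate number as a block, a 3' to 5' covariate, array weights, the reference group and leaving out gradients. The fit without Rpl11 gradients 2 and 3 was added after seeing the data. Replicate numbers did not pair gradients across the groups compared (correlations of residuals 0.0014, -0.013 and 0.031). No array was left out. The number of arrays limits the precision.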

Additional observations from a re-analysis of the deposited data

Results flagged for a closer look

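The control probe sets for 3' to 5' signal, which enter no comparison, exceeded on some Rpl11 arrays every value of the control construct arrays of the same pool. For Gapdh the log2 ratio was 0.99, 1.23 and 3.31 in the polysomal pools of Rpl11 gradients 1, 2 and 3, and 2.10 and 3.90 in the subpolysomal pools of gradients 2 and 3. For Actb it was 1.352 in the polysomal pool of gradient 3 and 1.57 and 1.96 in the subpolysomal pools of gradients 2 and 3. Their part in the recruitment changes was not tested beyond the covariate fit and the fits without these gradients. The covariate fit cannot adjust for a rise shared by both pools of a gradient.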

How the results depend on the processing

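Each change in processing was made alone. As reported 233 genes rose and 389 fell. The counts were 30 and 65 with no filter on signal, 553 and 725 with the upper 25% of probe sets, 33 and 132 with arrays centred on their medians, 111 and 223 with the replicate number as a block, 510 and 665 with array weights, and 0 and 0 with the compared groups alone or without Rpl11 gradients 2 and 3. With the Gapdh covariate 353 rose, and with untransduced cells as reference 152 rose. Leaving out any 1 gradient gave 33 to 253 and 99 to 345. Calls that rose were 37.5% of all as reported and 20% after centring on medians. The cause of these shifts was not tested. The compared groups alone leave fewer gradients to estimate the spread, and whether that accounts for their 0 calls was not tested either.

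The 61 genes that differ between the shRNAs became 114 with a pseudocount of 1 median signal, 359 with the upper 25%, 290 with array weights, 15 and 13 with quantile normalization of all arrays and within each pool, 2 with the mean of probe sets and 0 with no filter, median centring, the groups alone or the replicate block, and 0 to 128 without any 1 gradient. Control construct and untransduced cells differed in 1 gene with no filter and in 0 to 3 without any 1 gradient. The fall of the Rpl11 level kept its call in every fit run, and was -2.88 to -2.37 without any 1 gradient.

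Directions that turned were those of Rpl11 (-0.92, adjusted p = 0.0101) with all arrays quantile normalized, and of Rps19 with that setting (-0.32), within pools (-0.087), with array weights (-0.086), without control gradient 1 (-0.02) and without Rpl11 gradient 1 (-0.039), where leaving out any 1 gradient reached up to 0.198. None of the 115 called genes that the naming rule chose turned in a setting that tested it, and 106 of them were tested with the upper 25%. Called list members named beyond that rule were not followed across settings. The number of gradients limits the precision, and dim genes have signals near background.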

Other observations

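Families that share a symbol, picked after their values were seen, are given as counts with no test. Of 16 small integral membrane proteins (Smim) 8 fell and 0 rose (median -0.70). Of 5 Lamtor subunits of the lysosomal Ragulator scaffold 3 fell (median -0.91), and of 5 dynein light chains (Dynll, Dynlrb and Dynlt) 4 fell (median -0.87). Of 6 beta-tubulins 3 rose (median 0.79), and of 7 numbered subunits of the chaperonin that folds tubulin 2 rose (median 0.63). The background is 3.52% that fell and 2.11% that rose among all genes.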
